A study of Mus musculus with 9 samples.

Results

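The Klf transcription factors examined here were 10 genes of the Krüppel-like factor family, namely Klf2, Klf3, Klf4, Klf5, Klf6, Klf7, Klf9, Klf10, Klf13 and Klf16, in mouse dorsal root ganglia (DRG), the ganglia that hold the cell bodies of sensory neurons. They were chosen by gene name, and every array probe annotated to them was used: 17 probes, among 31186 probes and 20898 genes that could be tested. All 10 genes were measured, 7 of them by 2 probes and 3 (Klf4, Klf10 and Klf16) by 1. Messenger RNA was measured in adult mice in 5 injured samples, taken from L3/L4 DRG 3 days after sciatic nerve transection, and in 4 uninjured L3/L4 DRG samples. The labels and the methods give that time, while the results text of the study gives a shorter one, so the time after injury is not settled. All 9 samples carry the labels cre.neg and jun.wt, so that every mouse lacked Cre and had wild-type jun. Each array compared a DRG sample in the red channel (Cy5) with the same commercial universal mouse reference RNA in the green channel (Cy3), with no dye swap, and a value below is the log2 ratio of DRG over reference. The labels do not say how many animals a sample holds or whether uninjured DRG came from the other side of injured mice, so p-values measure only the spread between these samples, which may be technical.

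Klf proteins bind DNA through 3 zinc fingers at their C-terminal end and recognise GC-rich and CACCC-type sequences, while their N-terminal parts recruit co-activators or co-repressors. In neurons the family is known for its effect on axon growth: Klf6 and Klf7 promote neurite growth, and Klf4 and Klf9 limit it. Outside neurons, Klf2 and Klf4 are prominent in the endothelium of blood vessels, Klf9 responds to glucocorticoids and Klf10 to TGF-β.

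The stretch of 250 bases before the annotated gene start is shown for the 4 members with known opposite roles in axon growth, because Klf proteins bind GC-box and CACCC-type sequences. The sequences are from RefSeq on build GRCm38.p6 and are written along each gene's own strand. Capitals mark the GC box GGGCGG and the CACCC box CACCC, on either strand. The stretches lie at chr13:5861239-5861488 on the plus strand for Klf6, chr1:64121390-64121639 on the minus strand for Klf7, chr4:55532476-55532725 on the minus strand for Klf4 and chr19:23140976-23141225 on the plus strand for Klf9.
Klf6: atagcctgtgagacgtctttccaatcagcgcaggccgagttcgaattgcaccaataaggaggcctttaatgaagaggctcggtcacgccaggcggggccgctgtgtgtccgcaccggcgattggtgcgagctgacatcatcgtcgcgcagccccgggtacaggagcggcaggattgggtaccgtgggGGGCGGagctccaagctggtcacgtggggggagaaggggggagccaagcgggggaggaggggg
Klf7: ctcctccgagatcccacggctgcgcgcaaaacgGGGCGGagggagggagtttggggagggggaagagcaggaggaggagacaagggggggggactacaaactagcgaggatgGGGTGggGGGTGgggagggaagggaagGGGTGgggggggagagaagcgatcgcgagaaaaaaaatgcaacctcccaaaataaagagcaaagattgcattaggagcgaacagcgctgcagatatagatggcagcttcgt
Klf4: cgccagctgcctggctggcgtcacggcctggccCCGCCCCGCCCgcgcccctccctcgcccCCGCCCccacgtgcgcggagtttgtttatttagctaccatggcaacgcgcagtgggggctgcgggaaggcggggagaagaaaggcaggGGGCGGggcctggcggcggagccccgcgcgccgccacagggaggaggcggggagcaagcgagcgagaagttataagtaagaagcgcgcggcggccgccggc
Klf9: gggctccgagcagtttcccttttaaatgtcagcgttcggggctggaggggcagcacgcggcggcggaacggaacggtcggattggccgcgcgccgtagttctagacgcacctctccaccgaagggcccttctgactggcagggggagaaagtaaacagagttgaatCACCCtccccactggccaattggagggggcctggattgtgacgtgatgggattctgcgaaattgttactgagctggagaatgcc
G and C made up 64.8% of the Klf6 stretch, 59.2% of that of Klf7, 74.0% of that of Klf4 and 59.6% of that of Klf9. Promoter entries running to 50 bases after the start were found for 7 members (Klf2, Klf3, Klf4, Klf6, Klf7, Klf9 and Klf13). In these, a GC box was present in 6 of 7, Klf9 being the exception, against 35.7% of all 32851 promoters, and a CACCC box in 5 of 7 against 57.5%. The letters TGACNTCA, a CRE-type site, occurred in Klf6 alone of the 7 (as TGACATCA, 119 bases before the start) and in 8.83% of all promoters. The letters TGANTCA, a loose form of the AP-1 site with any middle base, occurred in Klf9 alone of the 7 and in 7.81% of all promoters. The Klf9 match was TGAATCA, 89 bases before the start. Its middle A differs from the C or G of the usual AP-1 site. The CCAAT box CCAAT was found in 3 of 7 against 37.4%, and the STAT site TTCNNNGAA in 1 of 7, Klf9, against 8.30%. Both strands were searched for every motif, and the motifs were picked after the sequences had been seen.

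The labels were first checked with a pair of genes known to respond to axon injury. Atf3, a transcription factor absent from most intact sensory neurons, was 5.14 higher on the log2 scale after injury (limma, adjusted p = 2.65e-11), and Jun was 1.77 higher (adjusted p = 0.000334), with no overlap between the groups for either. All 12 sensory neuron markers on the list used here were measured, and 2 of them fell, Scn9a by 0.54 and Isl1 by 0.49 on the log2 scale. At an unadjusted limma p under 0.05, 5 of the 12 were lower and none was higher. Skeletal muscle markers stood apart in injured samples 2 and 4, where the mean of the 9 genes lay 1.88 and 3.19 above the uninjured mean, against −0.077 to 0.28 in the other injured samples, and the same 4 Klf genes rose when both samples were left out. Injured sample 5 had the lowest median red signal, 156 against 194 to 238 on the other arrays. The samples were hybridised on 3 slides, of which 1 held 3 uninjured samples, another held 1 uninjured and 3 injured samples and the last held 2 injured samples, so slide and injury largely overlap.

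After transection, 4 of the 10 Klf genes rose (Klf6, Klf7, Klf10 and Klf13) and none fell by limma at an adjusted p under 0.05. Over all genes tested, 11.5% rose and 13.9% fell at that threshold. At an unadjusted limma p under 0.05, 7 of the 10 rose and none fell. The share of all genes at the unadjusted threshold was not counted. The log2 ratio was higher after injury in 9 of the 10, with a median difference of 0.35 against 0.0019 over all genes, of which 50.4% were higher. In 3 of the 10 (Klf6, Klf7 and Klf13) every injured sample lay above every uninjured one, a pattern seen in 10.9% of all genes. In bulk ganglion RNA, a change in the number of cells of a type and a change in RNA per cell cannot be told apart.

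**Figure D1:**
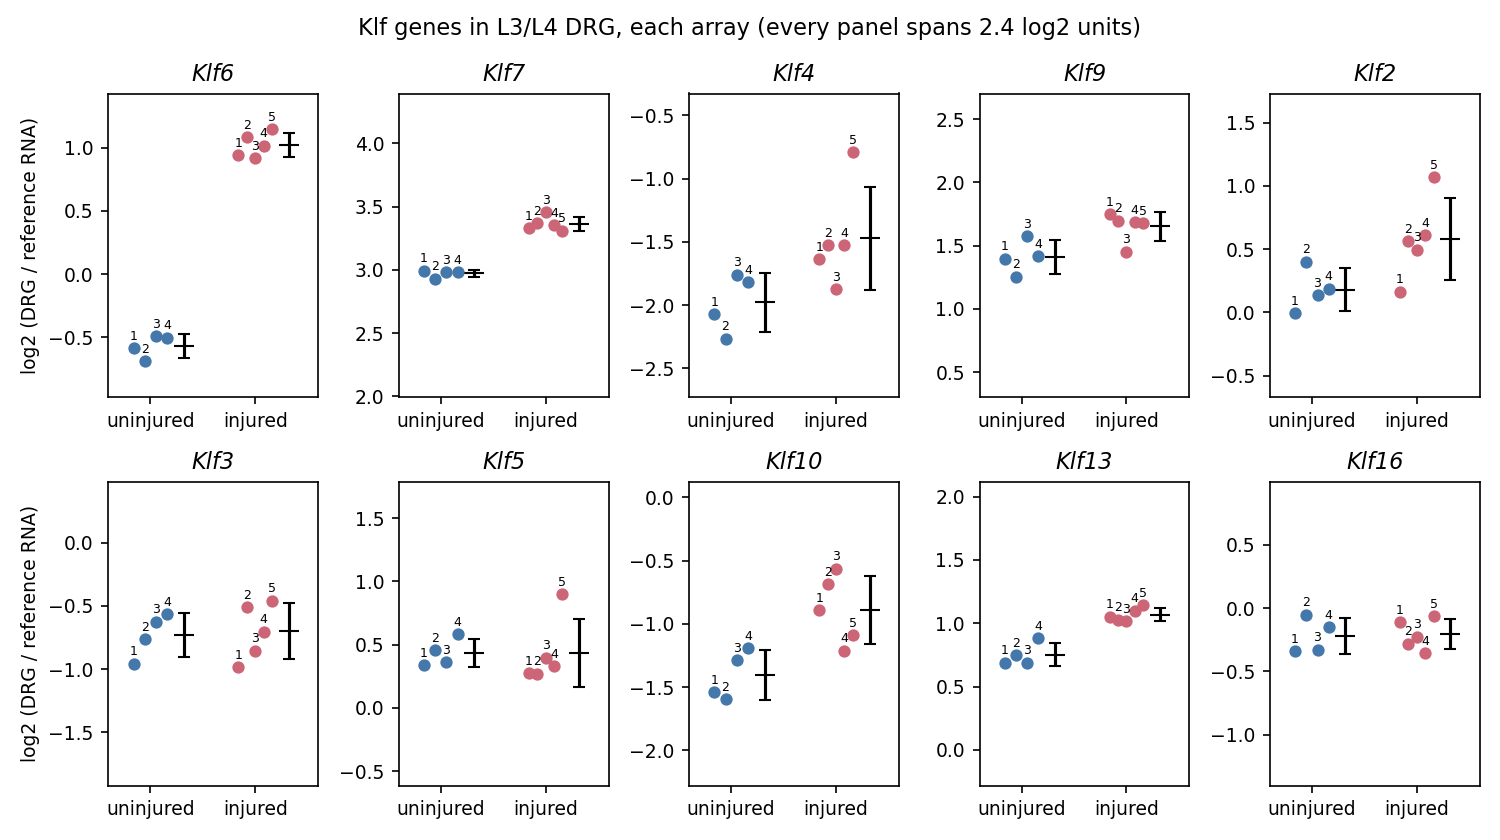
Log2 ratio of DRG over reference RNA (vertical axis) for the 10 Klf genes in each uninjured (blue, n = 4) and injured (red, n = 5) sample, numbered by sample, with the mean and SD as black bars at the right of each group. Klf6 separated by 1.59 between the groups, Klf7 and Klf13 separated by 0.39 and 0.32, and injured sample 5 was the highest of its group for 7 of the 10 genes, the exceptions being Klf7, Klf9 and Klf10.

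Klf6, a growth-promoting member that is also induced by injury in other tissues, had the largest change of the 10. Its log2 ratio was −0.59, −0.69, −0.49 and −0.50 in uninjured samples 1 to 4 and 0.94, 1.08, 0.92, 1.02 and 1.15 in injured samples 1 to 5. It thus passed from below the reference in every uninjured sample to above it in every injured one. The mean went from −0.57 ± 0.0926 (SD, n = 4) to 1.02 ± 0.0971 (SD, n = 5), a difference of 1.59 on the log2 scale (SE 0.0696, limma adjusted p = 2.00e-07), or 3.0-fold. An exact permutation test gave p = 0.00794 (two-sided), the smallest that 5 against 4 samples allow. Klf6 ranked number 103 by rise among all genes. Its second probe rose by 1.50 (limma, adjusted p over probes = 4.51e-07). The probes of Klf6 were placed at chr13:5755138-5755197 and chr13:5752473-5752532, both on the plus strand, in the coordinates of build mm7 that the array files give.

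Klf7, the other growth-promoting member, which is needed for the development of pain-sensing DRG neurons, was far above the reference before injury and rose by a small and regular amount. Its log2 ratio was 2.99, 2.93, 2.98 and 2.98 in uninjured samples 1 to 4 and 3.33, 3.37, 3.46, 3.35 and 3.31 in injured samples 1 to 5. The groups did not overlap, and the SDs were 0.0278 (n = 4), the smallest of the 10 genes, and 0.0566 (n = 5), the smallest after that of Klf13. The difference was 0.39 on the log2 scale (SE 0.0526, limma adjusted p = 0.000397), or 1.31-fold, with an exact permutation p of 0.00794 (two-sided). The second probe rose by 0.41 (limma, adjusted p = 0.00241).

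Klf4 and Klf9, the growth-limiting members, were not lower after injury. Klf4, which represses axon growth genes in retinal and cortical neurons, had log2 ratios of −2.07, −2.26, −1.76 and −1.82 in uninjured samples 1 to 4 and −1.64, −1.53, −1.87, −1.53 and −0.79 in injured samples 1 to 5. The groups overlapped through injured sample 3, and injured sample 5 stood above the rest. The difference of 0.51 (SE 0.194) did not pass the test (limma, adjusted p = 0.0820), although the unadjusted exact permutation p was 0.0397. Without injured sample 5 the difference was 0.34 (limma, adjusted p = 0.0704). Without injured sample 3 it was 0.61 and passed (limma, adjusted p = 0.0435).

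Klf9, a target of thyroid and glucocorticoid hormones, had log2 ratios of 1.40, 1.25, 1.58 and 1.42 in uninjured samples 1 to 4 and 1.75, 1.70, 1.45, 1.69 and 1.67 in injured samples 1 to 5. Injured sample 3 lay among the uninjured values, and the other 4 injured samples lay above all of them. The difference was 0.24 (SE 0.0816), just outside the threshold (limma, adjusted p = 0.0526, exact permutation p = 0.0238 before adjustment). Its second probe gave 0.17 (limma, adjusted p = 0.0921), with no overlap between the groups. Klf9 passed in 5 of the 23 other ways of processing the data, among them the fit without injured sample 3 (0.29, adjusted p = 0.0194) and the fit without uninjured sample 3 (0.30, adjusted p = 0.0333).

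The growth-promoting and growth-limiting members were then compared directly within each sample, in 4 pairs. The change of Klf6 exceeded that of Klf4 by 1.08 on the log2 scale (exact permutation p = 0.0159, 0.0318 after adjustment over the 4 pairs). It exceeded that of Klf9 by 1.35 (exact permutation p = 0.00794, adjusted 0.0318). In both pairs all 5 injured samples lay above all uninjured ones. Klf7 did not separate in this way. Its change less that of Klf4 was −0.12 (exact permutation p = 0.722, adjusted 0.722), and less that of Klf9 it was 0.15 (exact permutation p = 0.183, adjusted 0.244).

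Klf10 and Klf13 also rose. Klf10, an early gene of the TGF-β response, had log2 ratios of −1.54, −1.59, −1.28 and −1.19 in uninjured samples 1 to 4 and −0.89, −0.69, −0.56, −1.21 and −1.09 in injured samples 1 to 5. Injured sample 4 fell just below the highest uninjured sample, and the other injured samples lay above all uninjured ones. The difference was 0.51 (SE 0.140, limma adjusted p = 0.0210), or 1.43-fold, and the exact permutation p was 0.0238. Its call was lost without uninjured sample 1 (0.47, limma adjusted p = 0.0651), without uninjured sample 2 (0.45, limma adjusted p = 0.0606) and with the red channel used alone (0.44, limma adjusted p = 0.0518).

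Klf13, a repressor that works with Sin3 co-repressors, had log2 ratios of 0.69, 0.75, 0.69 and 0.88 in uninjured samples 1 to 4 and 1.05, 1.03, 1.02, 1.10 and 1.14 in injured samples 1 to 5. The groups did not overlap. The difference was 0.32 (SE 0.0607, limma adjusted p = 0.00348), or 1.25-fold, with an exact permutation p of 0.00794. The second Klf13 probe showed no such difference, at 0.0021 (limma, adjusted p = 0.988). That probe was dim, with a median red signal of 122 against 5540 for the brighter probe, and averaging the probes gave 0.16 (limma, adjusted p = 0.0510). The probes of Klf13 therefore disagree.

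Klf2, a factor of quiescent endothelium and of lymphocytes, had log2 ratios of −0.0085, 0.40, 0.14 and 0.19 in uninjured samples 1 to 4 and 0.16, 0.56, 0.50, 0.61 and 1.07 in injured samples 1 to 5. Injured sample 1 lay among the uninjured values and injured sample 5 was the highest. The difference of 0.40 (SE 0.154) did not pass the test (limma, adjusted p = 0.0844, exact permutation p = 0.0556). It passed in 3 of the 23 other ways of processing, which were without injured sample 1 (0.51, limma adjusted p = 0.0220), with array weights (0.40, adjusted p = 0.0231) and with slide as a random block (0.35, adjusted p = 0.0432). The second Klf2 probe gave 0.44 and was not called (limma, adjusted p over probes = 0.206, exact permutation p = 0.183). Red signals ran from 50400 to 66100 for the brighter probe, used above, and from 1740 to 5050 for the second. For the brighter probe the reference channel itself was 0.20 lower on the injured arrays (limma, adjusted p = 0.350), and in the red channel alone it differed by 0.055. No other member differed by more than 0.076 in the reference channel. Over all genes, 0.158% were called in that channel, where the same RNA was hybridised throughout, and none of the 10 members was by limma, with 1 (Klf2) at an unadjusted p under 0.05.

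By the brightest probe of each gene, Klf3, Klf5 and Klf16 differed by less than 0.1 on the log2 scale. The second probe of Klf3 gave 0.16 (limma, adjusted p over probes = 0.161) and that of Klf5 gave 0.105 (adjusted p = 0.479). Neither was called. Klf3, a repressor that binds CtBP, gave 0.027 (SE 0.121, limma adjusted p = 0.904), with log2 ratios from −0.96 to −0.57 in the uninjured samples and −0.98 to −0.46 in the injured samples. Klf5, best known from dividing epithelial and smooth muscle cells, gave −0.00060 (SE 0.126, limma adjusted p = 0.998). Its log2 ratios ran from 0.34 to 0.59 in the uninjured samples and from 0.27 to 0.90 in the injured samples, and without injured sample 5 the difference was −0.12 (limma, adjusted p = 0.252). Klf16, a Sin3-binding relative of Klf13, gave 0.012 (SE 0.0843, limma adjusted p = 0.940), with uninjured values from −0.34 to −0.053 and injured values from −0.35 to −0.065. The sign of all 3 turned under other ways of processing.

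**Figure D2:**
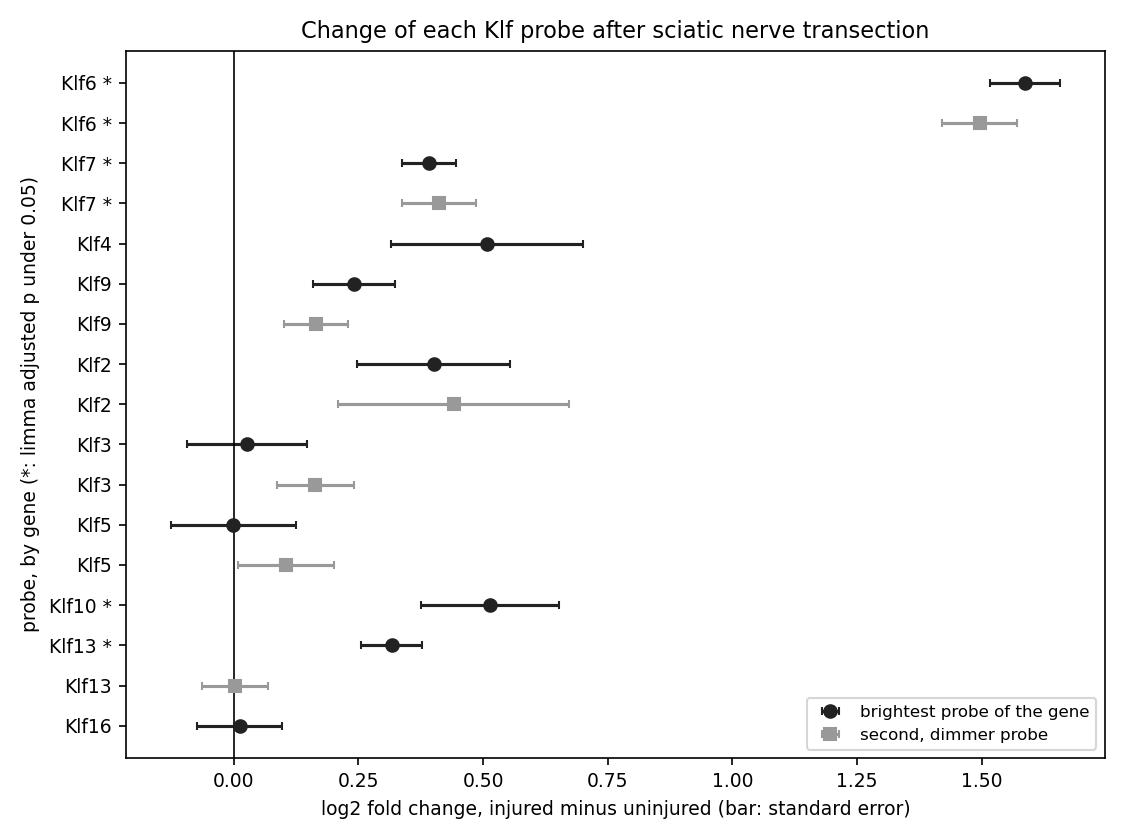
Log2 fold change, injured minus uninjured, with its standard error (horizontal bars) for the 17 probes of the 10 Klf genes, the brightest probe of a gene as a black circle and a second probe as a grey square. Both probes of Klf6 (1.59 and 1.50) and of Klf7 (0.39 and 0.41) rose, and the probes of Klf13 disagreed (0.32 and 0.0021).

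Of the 17 probes, 6 were called higher, against 10.5% of all probes. Among the 7 genes with 2 probes, both were called for 2, Klf6 and Klf7. All 17 probes were well above background in the red channel on all 9 arrays.

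The members differed in which samples carried their change. Injured sample 5 was the highest of the 5 injured samples for 7 of the 10 genes, and lay above the uninjured mean by 1.71 for Klf6, 1.19 for Klf4, 0.89 for Klf2, 0.47 for Klf5, 0.39 for Klf13, 0.27 for Klf3 and 0.15 for Klf16. The exceptions were Klf7, which was lowest of the injured samples there, Klf9 and Klf10. The share of all genes that were highest in that sample was not counted. Klf6 spanned 1.48 to 1.71 over the injured samples. In the same sample the mean of the 11 endothelial markers was 0.72 above the uninjured mean, against 0.023 to 0.29 in the other injured samples and −0.24 to 0.17 in the uninjured ones. Of the 11, 1 was called by limma (Tek, 0.47 higher), and 4 were higher and none lower at an unadjusted p under 0.05. The mean of the 8 mural cell markers was 1.18 in injured sample 5, against −0.035 to 0.66 in the other injured samples and −0.45 to 0.39 in the uninjured ones, and none of the 8 was called by limma or had an unadjusted p under 0.05. The lists of 6 fibroblast, 6 satellite glial and 12 sensory neuron markers were also highest among the injured samples in sample 5. The fibroblast mean was 0.71 there, against 0.009 to 0.40 in the other injured samples and −0.47 to 0.51 in the uninjured ones, and none of the 6 was called by limma or had an unadjusted p under 0.05. The satellite glial mean was 0.46, against −0.064 to 0.34 and −0.10 to 0.13, and 2 of the 6 were called (Glul, 0.78 higher, and Slc1a3, 0.22 higher). The sensory neuron mean was 0.020, against −0.30 to −0.080 and −0.098 to 0.12. All markers on these lists were measured, and the part of any of these cell types in the Klf values was not tested. Macrophage markers had 2 of 12 called higher (Aif1 by 0.90 and Itgam by 0.50), with list means of 0.023 to 0.98 in the injured and −0.45 to 0.37 in the uninjured samples. At an unadjusted limma p under 0.05, 7 of the 12 were higher and none was lower, with a list median of 0.595.

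**Figure D3:**
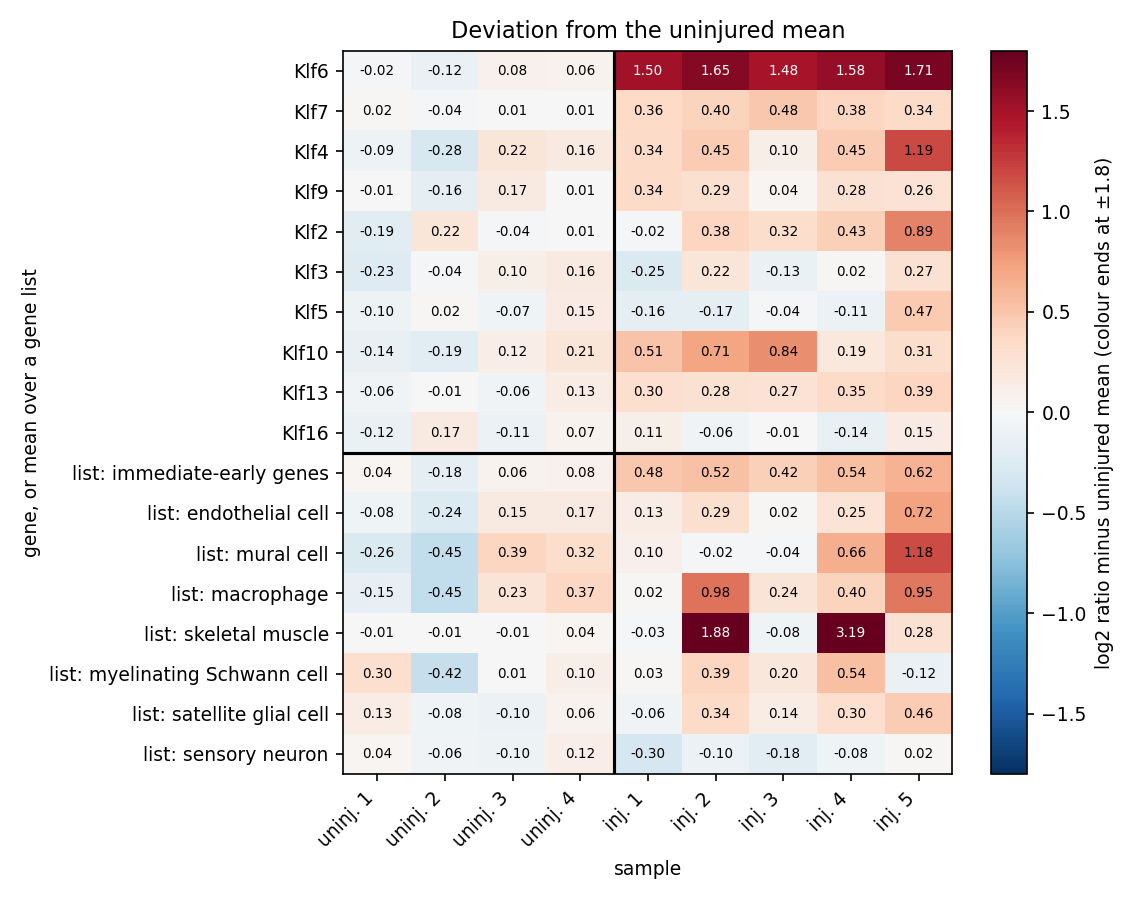
Log2 ratio less the uninjured mean for the 10 Klf genes (upper rows) and for the mean of 8 gene lists (lower rows) in each of the 9 samples (columns), on a red to blue scale centred on 0. Klf6 lay 1.48 to 1.71 above its uninjured mean in the 5 injured samples. Among the injured samples only, 7 of the 10 genes were highest in sample 5. So were the endothelial (0.72), mural (1.18), satellite glial (0.46), sensory neuron (0.020) and immediate-early (0.62) lists.

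The genes nearest to each of the 4 growth-related members were found by the root mean square difference of their deviations from the uninjured mean over the 9 samples. Nearest to Klf6 were Serpinb1a (0.0576), Cited2 (0.0932) and Fam111a (0.0975), and nearest to Klf7 were Smad4 (0.0331), Ipo5 (0.0404) and Pask (0.0428). Klf4 was nearest to Mmrn2 (0.0894), Tnxb (0.0953) and Efemp2 (0.109), and Klf9 to Arid5b (0.0490), Ifrd2 (0.0609) and Tex264 (0.0615). Among the 10 members themselves, Klf7 and Klf13 were the closest pair (0.105).

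The remaining Klf and Sp genes, which share the zinc finger domain, gave no call in either direction among the 13 of 16 that were measured (limma, adjusted p from 0.186 to 0.992), and none had an unadjusted p under 0.05. Their median difference was 0.077. Klf15, a glucocorticoid-induced member, had the largest, at −0.37 (adjusted p = 0.186). Klf1 gave 0.19, Klf11 0.14, Sp1 0.13, Sp3 0.098, Klf12 0.087, Klf8 0.086, Sp7 0.077, Klf17 0.071, Sp2 0.042, Sp4 0.0054, Klf14 −0.024 and Sp6 −0.093. Sp5, Sp8 and Sp9 were not measured. Of 16 co-regulators, 1 rose, Ctbp2 (0.35, adjusted p = 0.00559), a CtBP co-repressor of Klf3, and 1 fell, Fbxw7 (−0.42, adjusted p = 0.00576), part of a ubiquitin ligase that acts on Klf5 and other factors. Their median was −0.079.

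Genes linked to the members by earlier work moved in different ways, and each list is described by its count and its median beside the median of all genes, 0.0019. Of 5 genes linked to Klf7, 2 rose, the cell cycle inhibitor Cdkn1a by 1.82 (limma, adjusted p = 1.85e-06) and the growth cone protein Gap43 by 0.62 (adjusted p = 0.0466), with a list median of 0.010. Of 12 genes of the TGF-β pathway, 3 rose, among them the ligand Tgfb1 (0.37, adjusted p = 0.0271), and 1 fell, the inhibitory Smad7 (−0.44, adjusted p = 0.0431), with a median of 0.16. Of 10 genes of the endothelial pathway of Klf2 and Klf4, the kinase Mapk7 rose (0.38, adjusted p = 0.00641) and 3 fell, led by Mef2c (−0.80, adjusted p = 0.000448) and Map2k5 (−0.33, adjusted p = 0.0346), with a median of −0.19.

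Klf9 responds to glucocorticoids by textbook knowledge but was not on the list of glucocorticoid-responsive genes used here. Of the 9 measured genes of that list, 2 rose (Mt2 by 1.49 and Per1 by 0.77). A further 2 fell (Tsc22d3 by 0.59 and Nr3c1, the receptor itself, by 0.32), and the list median was −0.040. Of 14 circadian genes, 3 rose, led by Bhlhe41 (0.80) and Per1 (0.77), and none fell (2 were lower at an unadjusted p under 0.05), with a median of 0.043. Of 15 immediate-early genes, which are induced within minutes by many stimuli, 10 rose, led by Dusp1 (1.24) and Arc (1.04), with a median of 0.45. Each of these calls is from the limma fit over all genes.

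Only Klf6 passed the limma test in all 23 other ways of processing the data and of leaving out samples, with differences from 1.50 to 1.65. Klf7 passed in 21, Klf13 in 20 and Klf10 in 18. With slide as a term in the fit, which rests on the 4 samples of the shared slide, Klf7 gave 0.34 (limma adjusted p = 0.0898), Klf13 0.39 (adjusted p = 0.0957) and Klf10 0.65 (adjusted p = 0.197), and none of the 3 passed. Within that slide, all 3 injured samples lay above the single uninjured sample for 8 of the 10 members, the 4 that rose and Klf2, Klf4, Klf9 and Klf16. The share of all genes with this pattern was not counted. That uninjured sample, number 1, lay below the uninjured mean for every member but Klf7, at −0.12 for Klf16. With median centring in place of loess, Klf7, Klf13 and Klf10 also failed, at 0.30 (limma adjusted p = 0.202), 0.24 (adjusted p = 0.189) and 0.43 (adjusted p = 0.225).

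**Figure D4:**
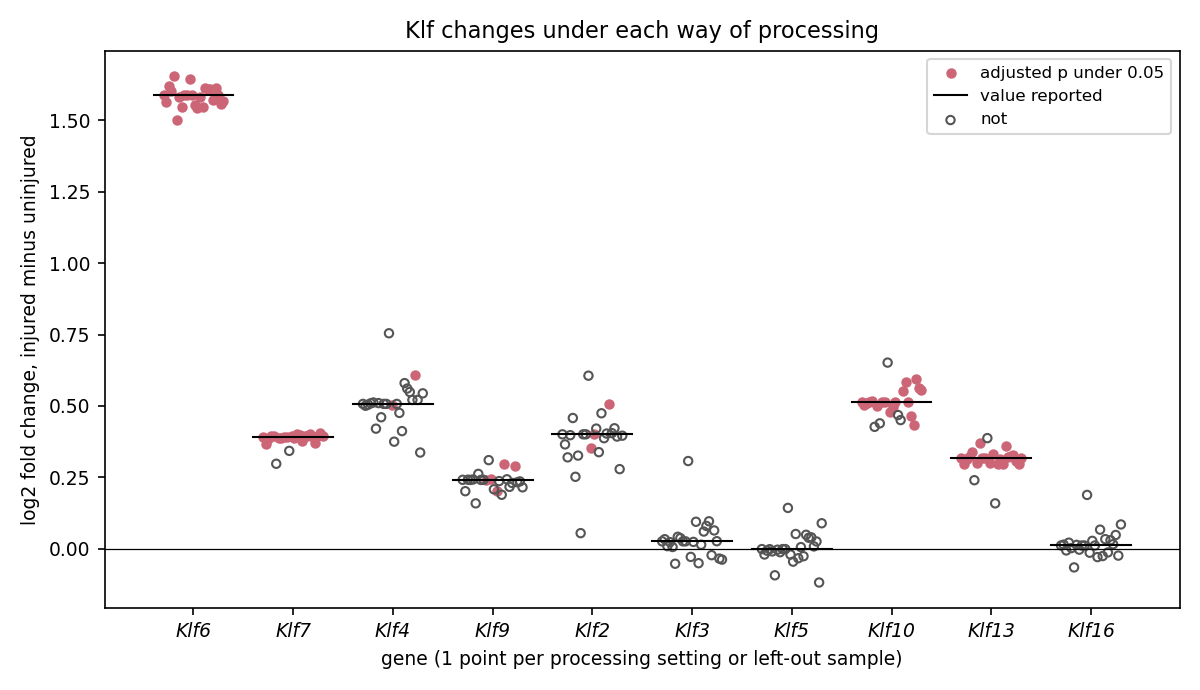
Log2 fold change, injured minus uninjured, of each Klf gene under the main processing (horizontal line) and under 23 alternatives (points), filled where the limma adjusted p was under 0.05. Klf6 stayed between 1.50 and 1.65 and was filled throughout. Klf3 ranged from −0.052 to 0.31, Klf5 from −0.12 to 0.14 and Klf16 from −0.065 to 0.19, each highest with slide as a fixed block.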

How the data were processed

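The 9 arrays are Agilent two-colour whole mouse genome arrays. The deposited scanner files hold mean and background intensity in both channels and Agilent's log10 ratio, from Feature Extraction per the file headers, and the authors' series table holds their log2 ratios, made with limma per the submitters' processing notes. From the intensities, spots flagged non-uniform were left out, background was corrected by normexp (offset 50), ratios were loess-normalized within arrays and repeated spots averaged. Probes whose Cy5 signal was well above background on at least 4 arrays were kept, with the brightest probe per gene. Injured and uninjured samples were compared with limma 3.58.1 in R 4.3.3, with Benjamini-Hochberg adjustment and a threshold of 0.05, and single values by exact permutation. Alternatives changed the background correction, normalization, filter, channel, slide term, probe choice and samples. The number of arrays limits the precision. No member spot was flagged, and none was marked as saturated in the red channel, the only channel checked for saturation. The script was tested on simulated data. Probes were named through RefSeq accessions or the file's symbols. All 10 members were named, then, by rule, all measured Klf and Sp genes, the called genes with the largest rise or fall of each list (at most 2 each way) and the 3 nearest genes of 4 members. One gene that this rule names is not reported here. Of the marker lists, those highest in injured sample 5 and those for muscle and macrophages are described. Members and lists were chosen with earlier results of these data known. Figures were drawn with matplotlib 3.10.9.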

Additional observations from a re-analysis of the deposited data

Results flagged for a closer look

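In injured sample 5, Klf5 had a log2 ratio of 0.90, against 0.27 to 0.40 in the other 4 injured samples, a gap of 0.799 of the group's range. In injured sample 3, Klf9 had a log2 ratio of 1.45, against 1.67 to 1.75 in the other 4 injured samples, a gap of 0.745 of the range. Both exceed Dixon's 95% limit for a single far sample in a group of 5. In all, 20 groups of values were examined, and chance alone flags about 1 in 20.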

How the results depend on the processing

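Klf6 passed under all 23 alternatives. The number of members called fell from 4 to 1 with median centring and with slide as a fixed block, was 7 with slide as a random block (correlation −0.207), and ranged from 3 to 6 when 1 sample was left out. Genes called numbered 5308, against 7409 with slide as a random block and 6648 with array weights, so calls over all genes also rose there. They fell to 2640 with median centring and to 1173 with slide as a fixed block (53.8% of them higher, against 45.2%). They fell to 2996 without the injured samples that held muscle markers, an alternative chosen after seeing the data. With 1 sample left out they ranged from 4013 to 5449. Values near 0 changed sign: Klf3 gave −0.052 with median centring, −0.028 with the random block and −0.037 without the muscle-marker samples. Klf5 gave 0.14 with the fixed block, 0.052 with a gene's probes averaged and 0.090 without the muscle-marker samples. Klf16 gave −0.0053 with an offset of 0, −0.065 with median centring, −0.0026 with Cy5 alone and −0.013 with the random block. With 1 sample left out, Klf3 ranged from −0.050 to 0.097, Klf5 from −0.12 to 0.050 and Klf16 from −0.029 to 0.067. The cause was not tested. With 1 sample left out, Klf6 less Klf4 ranged from 1.01 to 1.22, Klf6 less Klf9 from 1.32 to 1.39 and Klf7 less Klf4 from −0.24 to 0.068. On the slide that held both groups, with no test, these were 0.89, 1.33 and −0.41. For the first 2 pairs, without the muscle-marker samples the values were 1.02 and 1.35. Without any 1 injured sample their adjusted p was 0.0571 by exact permutation (4 against 4 samples cannot give an unadjusted p under 0.0286), and it was also 0.0571 without the muscle-marker samples. Klf7 less Klf9 was 0.20 with a gene's probes averaged and passed (exact permutation, adjusted p = 0.0317). No paired analysis was possible because nothing in the labels ties an injured sample to an uninjured one.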
